A study of Homo sapiens with 22 samples.

Results

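The 9 genes described here control p53 or apoptosis: MDM2, MDM4, CDKN1A, BBC3, BAX, PMAIP1, BCL2, BCL2L1 and MCL1. They were chosen by name from the 20149 protein-coding genes of the annotation, with earlier results of these data known. All 9 are described whatever their values. A gene was counted as having a peak in a library when a peak summit lay within 1 kb of any of its annotated transcription start sites. ChIP-seq, in which DNA crosslinked to a protein is recovered with an antibody and sequenced, was done for N-MYC and for WDR5 in 2 established human neuroblastoma lines with MYCN amplification, CHP-134 and IMR-32. The CHP-134 cultures received dimethyl sulfoxide (DMSO) or a compound for 4 h, with 3 libraries per antibody and treatment, and IMR-32 cells were untreated, with 2 libraries per antibody. The compound goes by more than one name in the labels and is left unnamed here. The IgG libraries were not analysed here.

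N-MYC is a transcription factor that pairs with MAX and binds the E-box, CACGTG. WDR5 is a chromatin adaptor that MYC proteins can contact. p53 is held in check by MDM2, which marks it for degradation, and by MDM4, which blocks its activity. When p53 is active it switches on CDKN1A, the p21 inhibitor of cyclin-dependent kinases, MDM2 itself, and the death genes BAX, BBC3 (PUMA) and PMAIP1 (NOXA). BAX opens the outer mitochondrial membrane. BBC3 neutralizes the protective proteins BCL2, BCL-XL (from BCL2L1) and MCL1, and PMAIP1 neutralizes MCL1 among them. Apoptosis depends on the balance between the death proteins and the protective ones. In neuroblastoma, MYCN amplification is known both for driving growth and for priming cells to die through this pathway.

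The sequences below, from hg19 (GRCh37), are the letters under the summits on which the results turn. Capitals mark CACGTG in the BAX and MDM2 stretches. BAX is on chromosome 19 (chr19:49458072-49465055, plus strand), and its 88-base stretch, chr19:49457984-49458071, ends at the base before the gene. The other BAX stretches, chr19:49458075-49458104 and chr19:49458106-49458135, lie in its first annotated exon. MDM2 is on chromosome 12 (chr12:69201957-69239324, plus strand), and its stretch, chr12:69202345-69202430, lies in an intron between the lowest N-MYC summit of the DMSO libraries and the bases just past the E-box.
BAX upstream: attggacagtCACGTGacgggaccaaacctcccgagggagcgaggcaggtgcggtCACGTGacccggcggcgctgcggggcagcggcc
BAX inner E-box: ttgcggggcggcCACGTGaaggacgcacgt
BAX last E-box: cagcggggctctCACGTGacccgggcgcgc
MDM2 intron: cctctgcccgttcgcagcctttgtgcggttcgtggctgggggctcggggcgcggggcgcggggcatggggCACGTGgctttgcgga

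A p53 response element, 2 half-sites at most 1 base apart with at most 2 of 20 bases off, was searched within 500 bp of the N-MYC summits in DMSO cells. It was found at MDM2 (chr12:69202703-69202722), BAX (chr19:49458470-49458489) and PMAIP1 (chr18:57566781-57566800), and at 91 of all 7783 genes with an N-MYC peak in at least 2 DMSO libraries (1.17%). The middle of the element lay 350 bp past the median summit at MDM2, 413 bp past it at BAX and 241 bp before it at PMAIP1. A match is a description of letters and does not show that p53 was bound. These stretches show the element, with its 20 bases in capitals, and do not reach the N-MYC summits.
MDM2 p53 element: gagctGGTCAAGTTCAGACACGTTCcgaaa
BAX p53 element: cccccGGGCAGGCCCGGGCTTGTCGcccgc
PMAIP1 p53 element: tttctGGGCTTGTTTACCCAAGTCTctaat

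The lists were unequal in length. N-MYC lists held 9125 to 15286 peaks in DMSO cells and 5242 and 8286 in IMR-32, but 11249, 2964 and 12313 in compound replicates 1, 2 and 3. WDR5 lists held 1671 to 4891 peaks in DMSO cells and 1258 and 1693 in IMR-32, but 5973, 15 and 401 in compound replicates 1, 2 and 3. Only 13.5% of the peaks of WDR5 compound replicate 1 overlapped the WDR5 consensus of DMSO cells (peaks in at least 2 libraries), against 56.1% in compound replicate 3. Peak strength is given below as the percentile of the deposited fold (signal over local background) within its own list, where 100 is the strongest peak, because folds of different lists are not on one scale. A percentile in turn depends on the length of its list. A gene that is not listed had no peak past the q-value limit of its library with a summit within 1 kb of a start site. Binding below that limit cannot be seen, and summits farther away were not counted.

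In DMSO-treated CHP-134 cells, 7 of the 9 genes had an N-MYC peak in at least 2 libraries, against 38.6% of all protein-coding genes. Each of these 7 was listed in all 3. BBC3 and BCL2 had none, here or in any of the 8 N-MYC libraries. The 7 genes were not among the stronger N-MYC promoters as a group: the median of their mean percentiles was 47.5, against 63.7 over the 5493 genes with a peak in the 3 lists. Within the group, BAX and MDM2 had the highest means.

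BAX had the highest level. Its N-MYC peak reached percentiles 95.5, 80.7 and 97.6 in DMSO replicates 1 to 3, a mean of 91.3 ± 9.21 (SD, n = 3). Replicate 2 was the lowest of the 3 for BAX, and for CDKN1A, MDM4, PMAIP1 and MCL1 as well. The summits lay 62 to 85 bp upstream of the canonical start site, inside the cluster of 4 E-boxes shown above, which sit 138, 93, 45 and 14 bp upstream of that site. All 4 E-boxes lay within 100 bp of the summit in each of the 7 N-MYC libraries that listed BAX, whatever the line or treatment. Across the genome 26.7% of the 7783 N-MYC genes had at least 1 CACGTG that near to the summit in at least 2 DMSO libraries. By the median count over the DMSO libraries listing each gene, 7 of the 7783 (0.0899%) had 4 or more.

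MDM2 was next, at percentiles 64.5, 84.3 and 91.5 (mean 80.1 ± 13.97, SD, n = 3). It was the only one of the 9 with an N-MYC peak in every one of the 8 libraries. Its level overlapped that of BAX. The N-MYC summits of the DMSO libraries lay 388 to 417 bp past the canonical start site, in an intron, and 43.5 to 72.5 bp short of the middle of the E-box shown above. Of the 7 genes with an N-MYC peak, BAX and MDM2 were the only 2 with CACGTG within 100 bp of the summit in at least 2 DMSO libraries. The share over all 7783 N-MYC genes was 26.7%, so this count lay near it. With a window of 50 bp only BAX kept it in at least 2, since MDM2 had it that near in DMSO replicate 2 alone. MDM4, the partner of MDM2 in restraining p53, was lower, at percentiles 41.6, 12.2 and 55.04, all below the lowest MDM2 value. Its summits lay 15 to 102 bp past the canonical start site with no CACGTG within 1 kb.

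The p53 targets CDKN1A and PMAIP1 had weaker peaks. PMAIP1 was at percentiles 75.2, 21.8 and 50.3, so its libraries spanned most of the range. Its summit lay 197 and 201 bp upstream of the start site in replicates 1 and 3, on the side of the p53 element shown above, but 437 bp downstream in replicate 2. CDKN1A was at percentiles 20.8, 0.471 and 45.0 and was among the weakest peaks of its list in replicate 2. It had no CACGTG within 1 kb of its summits, but a variant, CACGCG, lay within 100 bp of the summit in replicates 1 and 3. That variant is in capitals in the 30 bases of chr6:36646284-36646313, upstream of the canonical start site.
CDKN1A variant E-box: gccctcctgcagCACGCGaggttccgggac

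BBC3 had no peak in any library although it carries 3 CACGTG near its start sites, 782 bp downstream, 369 bp upstream and 1695 bp upstream of the canonical one. The plot of percentiles by library shows BBC3 as not listed throughout, for N-MYC and for WDR5.

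**Figure D1:**
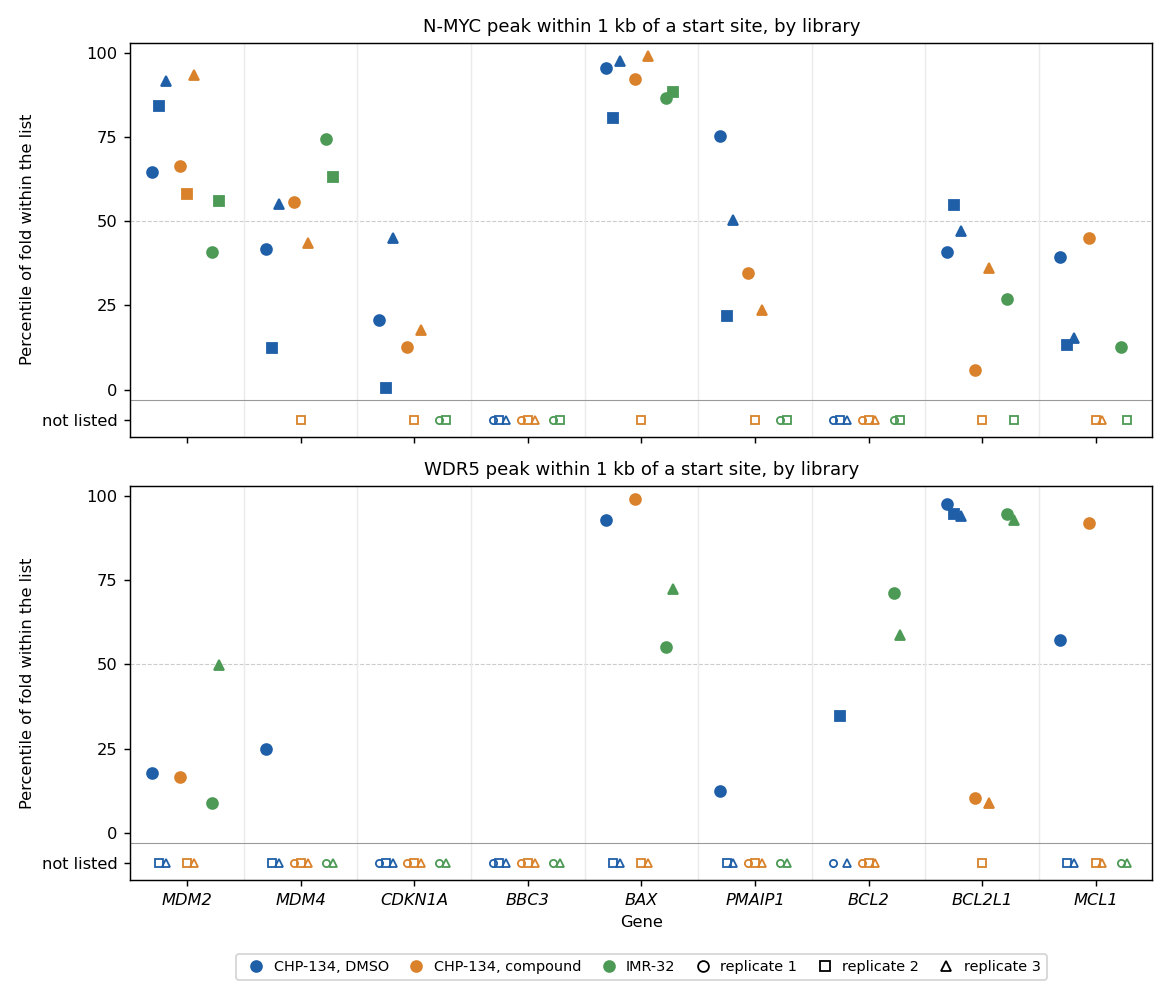
Percentile of the N-MYC (top) and WDR5 (bottom) peak of each gene within its own list (vertical axis, 0 to 100, with open symbols below the line for libraries that did not list the gene), by gene and library. Filled symbols are single libraries, coloured by line and treatment and shaped by replicate. In CHP-134, BAX and MDM2 carry the higher N-MYC peaks by mean, while in IMR-32 MDM4 lies above MDM2. BCL2L1 carries WDR5 peaks above percentile 90 in DMSO and IMR-32 libraries but near 10 with the compound.

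Among the protective genes, BCL2L1 had the steadiest N-MYC peak of the 7, at percentiles 40.8, 54.7 and 47.0 (mean 47.5 ± 6.95, SD, n = 3). Its summits lay 459 to 507 bp upstream of the canonical start site, inside the untranslated exons of longer transcripts. MCL1 was at percentiles 39.5, 13.2 and 15.5, with summits 315 to 348 bp past the start site, in the coding part of the first exon. BCL2 had no N-MYC peak. In order of mean level the genes ran BAX, MDM2, PMAIP1 (49.1 ± 26.7), BCL2L1, MDM4 (36.3 ± 21.9), MCL1 (22.7 ± 14.6) and CDKN1A (22.1 ± 22.3), each with SD and n = 3. Every pair of neighbours in that order overlapped. The values of BAX and MDM2 were all above those of BCL2L1, MDM4, MCL1 and CDKN1A. MDM2 overlapped with PMAIP1 through replicate 1 of the latter, and BAX lay above it.

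WDR5 was listed at far fewer of these genes. In DMSO cells 1 of the 9, BCL2L1, had a WDR5 peak in at least 2 libraries, against 8.52% of all genes. BCL2L1 is on chromosome 20 (chr20:30252255-30311792, minus strand). Its WDR5 peak was among the highest of each list, at rank 121 of 4891, 93 of 1758 and 100 of 1671, and at percentiles 97.5, 94.8 and 94.1. The 3 libraries lay close together, with a mean percentile of 95.5 ± 1.84 (SD, n = 3). The summits fell 946 to 976 bp upstream of the canonical start site, near the start of the longest transcripts, and the gene's strand around the median summit (chr20:30311608-30311637) reads as follows.
BCL2L1 under WDR5: ggtccgcggcgcggaactcggccgcgaaga

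These bases hold no E-box, and no CACGTG was found within 1 kb of the N-MYC summits of BCL2L1 either. N-MYC and WDR5 peaks of BCL2L1 overlapped, so it was the 1 cobound gene of the 9 in DMSO cells, against 7.22% of all genes. Their summits did not coincide. WDR5 lay a mean of 467 bp upstream of N-MYC, and single pairs of libraries lay 439 to 517 bp apart. The median over all 1454 cobound genes was 118 bp, and 15.3% of them had summits at least as far apart as BCL2L1. With a limit of 250 bp between summits none of the 9 was cobound.

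The other WDR5 peaks in DMSO cells stood in 1 library each. DMSO replicate 1, the longest WDR5 list, held BAX at percentile 92.7, MCL1 at 57.1, MDM4 at 24.7, MDM2 at 17.6 and PMAIP1 at 12.3. DMSO replicate 2 held BCL2 at percentile 34.6. At BAX the WDR5 summit was 0 to 23 bp from the N-MYC summits, over the same E-box cluster. CDKN1A and BBC3 had no WDR5 peak in any of the 8 libraries.

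Between DMSO and the compound, the clearest difference at the 9 genes was in the WDR5 peak of BCL2L1. It was at percentile 10.4 in compound replicate 1 and 8.73 in compound replicate 3, and was not listed in replicate 2, whose list of 15 peaks was left out of the test. Its deposited fold was 18.1, 26.4 and 23.7 in DMSO replicates 1 to 3 and 3.05 and 3.63 in compound replicates 1 and 3. On the scale of each list's own median fold, the peak went from 4.17, 5.22 and 4.81 times the median to 0.744 and 0.729 times. The groups did not overlap on any of these scales.

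With limma across the 148 genes listed in all 5 libraries, BCL2L1 fell by 85.9 percentile points (SE 7.21, adjusted p = 0.0046, from a mean of 95.5 to a mean of 9.55). Of these 148 genes 11 passed the threshold of 0.05 (7.43%), all lower with the compound, and the fall of BCL2L1 ranked 3 of 148. The median difference over the 148 genes was -0.239. Of the other 10 genes that passed, 6 encode ribosomal proteins, among 15 such genes tested, which was seen after their values were known. AATF, which encodes an inhibitor of apoptosis, also passed, from a mean percentile of 85.8 to 9.96 (adjusted p = 0.0116, limma).

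The call rests on few libraries. The adjusted p of BCL2L1 by limma was 0.0862 without DMSO replicate 2, 0.0697 without DMSO replicate 3 and 0.074 with the replicate number as a block, and an exact permutation test (two-sided) of 3 libraries against 2 gave p = 0.1, the smallest it allows. In compound replicate 1 the peak stood elsewhere, 203 bp upstream of the canonical start site and outside the DMSO summits, so WDR5 was listed at the DMSO position only in compound replicate 3.

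**Figure D2:**
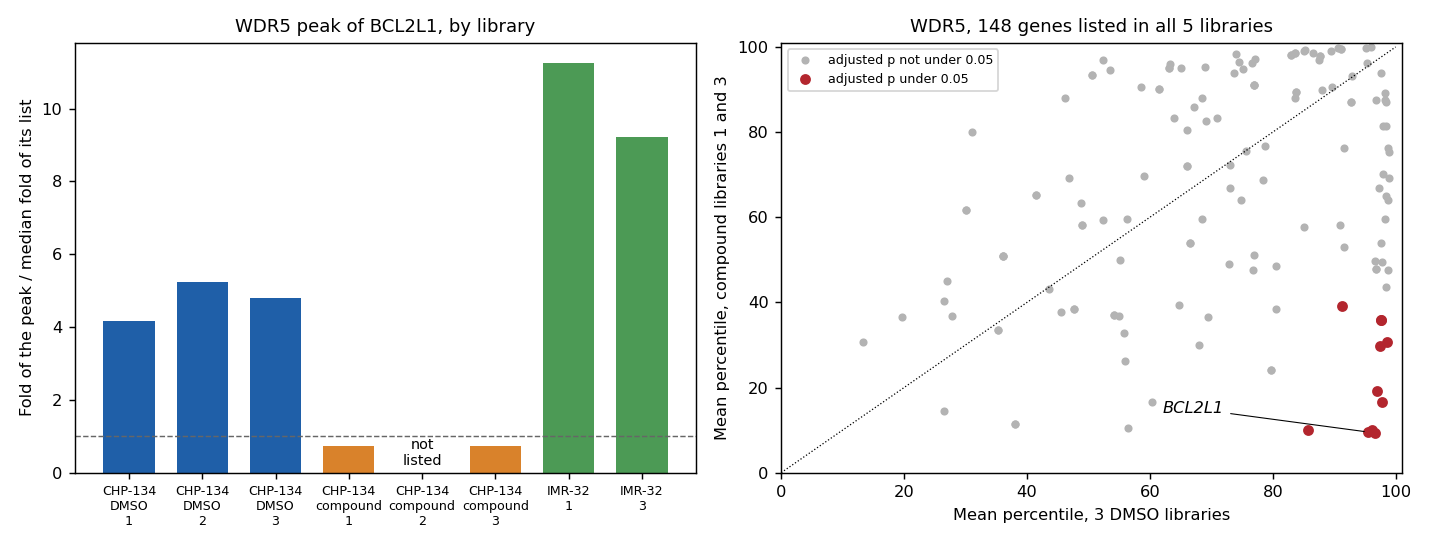
Left, fold of the WDR5 peak of BCL2L1 divided by the median fold of its list, 1 bar per library, with a dashed line at 1 and no bar where the gene was not listed. Right, mean WDR5 percentile of the 148 genes in the 3 DMSO libraries (horizontal) and in compound replicates 1 and 3 (vertical), with the 11 genes under an adjusted p of 0.05 in red and the line of equality dotted. BCL2L1 lies at 95.5 and 9.55, in the lower right corner.

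BCL2L1 was compared with genes that began as high. Of the 803 genes with a WDR5 peak in the 3 DMSO lists, 201 had a mean percentile of at least 90. Compound replicate 1 listed 70.6% of these, replicate 2 listed 4.48% and replicate 3 listed 24.4%, with median percentiles of 69.3, 46.7 and 60.3 among those listed. Most genes of this kind were missing from replicates 2 and 3, where the lists were short, and BCL2L1 was likewise missing from replicate 2. In replicates 1 and 3 it was listed, far below the median of those that were. How much of this went with the short lists was not tested. BCL2L1 was the 1 gene of the 9 with a WDR5 peak in at least 2 compound libraries, against 1.34% of all genes. Its peaks in compound replicates 1 and 3 lay in different places and shared no bases, so they form no consensus peak. MDM2 (percentile 16.6), BAX (99.0) and MCL1 (92.0) were listed in compound replicate 1 alone, the library of which only a small share of peaks overlapped the DMSO consensus. BAX and MCL1 thus had WDR5 peaks in replicate 1 of both treatments and in no other CHP-134 library, so they were not among the 148 genes tested. With unlisted genes set to percentile 0, BAX differed by 18.6 (SE 44.4, adjusted p = 0.849, limma) and MCL1 by 27.0 (SE 34.8, adjusted p = 0.752, limma). In that fit each of these genes was listed in 1 of 3 DMSO and 1 of 2 compound libraries. The differences thus rest on the zeros and the unequal groups and cannot measure a change.

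N-MYC was listed at nearly as many of the genes with the compound as with DMSO. In compound cells 6 of the 9 had a peak in at least 2 libraries, against 30.7% of all genes, and the 6 were the DMSO set without MCL1. Compound replicate 2, the list of 2964 peaks, held only MDM2, so leaving out either of the other libraries reduced the count to 1. BAX was at percentiles 92.1 and 99.0 in compound replicates 1 and 3, still at the top of the group. MDM2 was at percentiles 66.4, 58.0 and 93.3, MDM4 at 55.7 and 43.5, PMAIP1 at 34.7 and 23.6, CDKN1A at 12.7 and 17.8, and BCL2L1 at 5.97 and 36.0. List length matters here: MDM2 ranked 1247 of 2964 in compound replicate 2 but 1430 of 9125 in DMSO replicate 2, where its percentile was 84.3. Both values of BCL2L1, PMAIP1 and CDKN1A were below the DMSO mean of their gene, though those of PMAIP1 and CDKN1A lay within the DMSO range. MCL1 was listed in compound replicate 1 alone, at percentile 45.1.

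No difference in N-MYC level at these genes passed the test. Of the 2157 genes listed in all 6 libraries, limma called 0 at an adjusted p of 0.05 (0%), with 60 under an unadjusted p of 0.05. The exact permutation test of 3 libraries against 3 cannot go below 0.1 and so could call none. MDM2, the only member among them, differed by -7.58 percentile points (SE 12.3, adjusted p = 0.88, limma), while the median over all 2157 genes was -9.93. With the replicate number as a block the same difference had an SE of 8.39 (adjusted p = 0.668, limma). It rested largely on the short list of compound replicate 2. Without that library MDM2 differed by -0.29 (SE 13.0), and re-ranked among the genes listed in every library it differed by 8.72 (SE 16.9). Without compound replicate 2 there were 4794 genes and 6 of the members to test, and again 0 passed. BCL2L1 went from a mean of 47.5 to 21.0 (difference -26.5, SE 11.5, adjusted p = 0.999, limma), outside its DMSO range in both compound libraries. PMAIP1 differed by -20.0 (SE 17.4) and BAX by 4.31 (SE 8.23) in that fit. With the replicate number as a block, which pairs these libraries, PMAIP1 differed by -33.6 (SE 6.56, unadjusted p = 0.0245, adjusted p = 0.875, limma), lower in both pairs, and BCL2L1 by -22.9 (SE 9.10, adjusted p = 0.875, limma). In replicate 1 the PMAIP1 summit lay 197 bp upstream of the start site with DMSO but 512 bp past it with the compound. Those peaks shared bases, but their values were not taken at the same place.

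The N-MYC summits at MDM2 lay in different places in the 2 treatments. Those of the 3 DMSO libraries were 406, 417 and 388 bp past the canonical start site, and those of the 3 compound libraries 232, 232 and 219 bp past it. The groups did not overlap, and the peaks themselves all shared bases. With the compound the summit was 229 to 242 bp from the middle of the E-box, so that no CACGTG lay within 100 bp of it, and it fell in an untranslated exon near the start of the gene instead of the intron. MDM2 was chosen for this comparison after its summits were seen. Over the 1923 genes with overlapping peaks in all 6 libraries, 8.94% had summit groups that did not overlap, and 1.51% had such groups with a shift at least as large as the 176 bp of MDM2. The median shift was 25.3 bp. limma on the position gave a difference of -176 bp at MDM2 (SE 17.8, unadjusted p = 9.05e-05, adjusted p = 0.174), and called 0 of the 1923 genes (0%), with 84 under an unadjusted p of 0.05. With the replicate number as a block, which pairs these libraries, the same difference had an SE of 20.4 (unadjusted p = 0.00142, adjusted p = 0.939, limma). The shift of MDM2 was larger than its own spread between libraries and did not pass the test over all genes.

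At BAX the groups overlapped in place, with compound summits 97 and 48 bp upstream of the canonical start site, on either side of the DMSO range and within the E-box cluster. At BCL2L1 the compound summits, 599 and 545 bp upstream, lay farther from the start site than the DMSO summits at 459 to 507 bp.

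**Figure D3:**
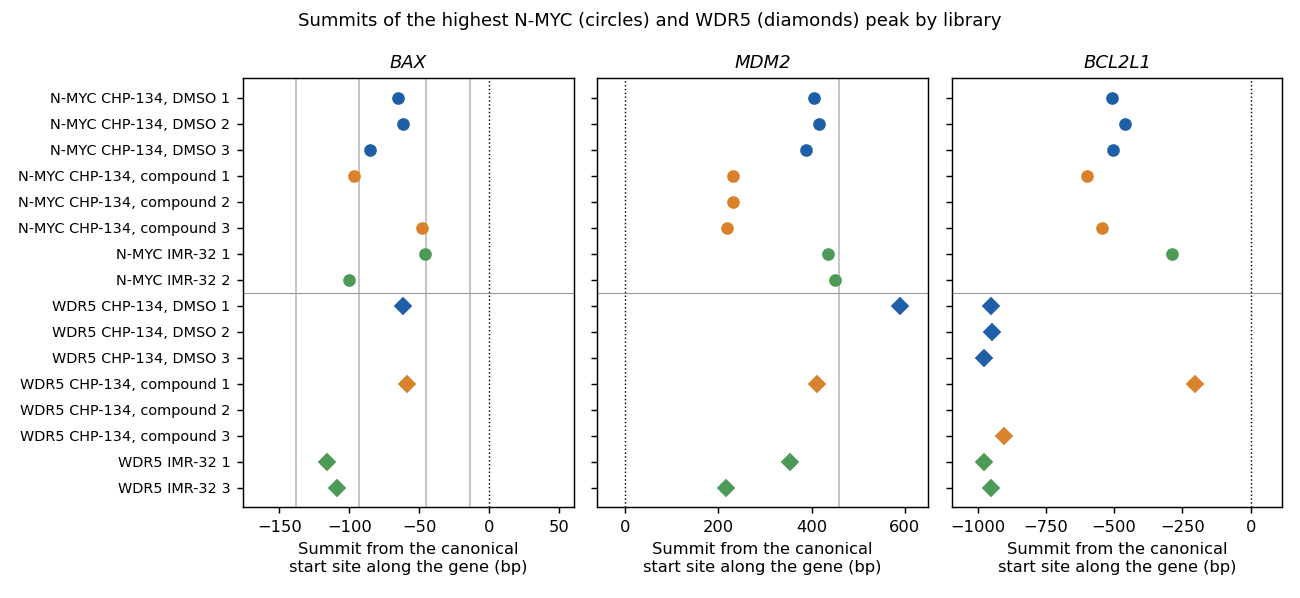
Summit of the highest N-MYC (circles, upper rows) and WDR5 (diamonds, lower rows) peak of BAX, MDM2 and BCL2L1 in each library, as the distance in bp along the gene from the canonical start site (dotted line), with E-boxes as grey lines. A row without a symbol had no peak. The N-MYC summits of the compound libraries lie at 219 to 232 bp at MDM2, where those of the DMSO libraries lie at 388 to 417 bp. WDR5 at BCL2L1 lies between 903 and 978 bp upstream except in compound replicate 1.

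In IMR-32 cells, N-MYC was listed in both libraries at 3 of the 9 genes, BAX, MDM2 and MDM4, against 15.9% of all genes. The line has 2 libraries, so a gene had to be in both, and it was sequenced with paired reads where CHP-134 had single reads, which cannot be told apart from the line. BAX stood at percentiles 86.7 and 88.4, within its CHP-134 range. MDM4 stood at 74.3 and 63.1, both above its 3 DMSO values, and MDM2 at 40.9 and 56.1, both below its DMSO values. The order of this pair was therefore the opposite of that in CHP-134. None of these differences passed. With limma MDM4 differed by 32.4 (SE 14.6, adjusted p = 0.446), MDM2 by -31.7 (SE 10.9, adjusted p = 0.328) and BAX by -3.74 (SE 7.47, adjusted p = 0.877). Of the 2755 genes tested 0 were called (0%), with 381 under an unadjusted p of 0.05. The exact permutation test of 3 libraries against 2 cannot go below 0.1 and is not informative here or for WDR5. The median over all of them was -6.4. The IMR-32 summits at MDM2 lay 435 and 450 bp past the canonical start site, 25.5 and 10.5 bp from the middle of the E-box, nearer than in any CHP-134 library. BCL2L1 and MCL1 were in IMR-32 replicate 1 alone, at percentiles 27.0 and 12.7, and CDKN1A and PMAIP1 were in neither.

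For WDR5, IMR-32 held 4 of the 9 genes in both libraries, against 4.86% of all genes. These were BAX, BCL2, BCL2L1 and MDM2. BCL2L1 was again the highest, at percentiles 94.6 and 92.9, and its summits, 978 and 952 bp upstream of the canonical start site, lay at the place they had in DMSO-treated CHP-134 cells. The level of BCL2L1 differed from that in CHP-134 by -1.72 percentile points (SE 2.5, adjusted p = 0.92, limma, 95.5 in CHP-134 and 93.7 in IMR-32). Of 523 genes tested 0 were called (0%), with 69 under an unadjusted p of 0.05. That comparison depends on the scale: by log2 of the fold over the list's median, 231 of the 523 passed, 214 of them higher in IMR-32, the median of all was 0.59, and BCL2L1 was higher by 1.11 (SE 0.37, adjusted p = 0.00908), a fold of 11.3 and 9.21 times the median of its list.

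BCL2, which encodes the founding member of the protective family, had WDR5 without N-MYC. Its WDR5 peak was at percentiles 71.1 and 58.8 in IMR-32, with summits 276 and 396 bp past the canonical start site. DMSO replicate 2 had its 1 BCL2 peak at the same summit as IMR-32 replicate 1, also 276 bp past the start, and no N-MYC library listed the gene. BAX had WDR5 at percentiles 55.1 and 72.4 and MDM2 at 8.68 and 49.8. N-MYC and WDR5 peaks of BAX and MDM2 overlapped in IMR-32, so 2 of the 9 were cobound there, against 2.32% of all genes. Mean summits of the pair lay 39.5 bp apart at BAX and 157 bp apart at MDM2. BCL2L1, cobound in CHP-134, was not cobound in IMR-32, because its N-MYC peak was in 1 library only.

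MDM2 was the 1 member that could be matched to other genes over the 8 N-MYC libraries. Of the 1591 genes listed in all 8, PLK3, which encodes a stress-responsive kinase, and ATL1, which encodes a GTPase of the endoplasmic reticulum, came closest, with root mean square differences of 8.005 and 8.008 percentile points.

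The wider pathway was counted from lists written by hand. Of 13 genes encoding regulators of p53, 11 had an N-MYC peak in at least 2 DMSO libraries, as did 12 of 18 further p53 targets, 4 of 11 other BCL2 family genes and 9 of 15 genes of caspases, the apoptosome and their inhibitors, against 38.6% of all genes. In compound cells the counts were 9, 10, 3 and 6, against 30.7%, and in IMR-32 they were 7, 4, 3 and 5, against 15.9%. In DMSO cells the other BCL2 family genes lay near the share of all genes and the other 3 lists above it.

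Among these genes the highest mean N-MYC percentile in DMSO cells was at AEN, a p53-induced nuclease, at 97.4 ± 1.91 (SD, n = 3), with 97.9 ± 1.32 in the compound libraries (n = 3) and 97.5 ± 0.551 in IMR-32 (n = 2). BCL2L11, which encodes the death protein BIM, was at 96.1 ± 1.20 in DMSO cells and 88.5 ± 5.73 with the compound (n = 3 each), and in neither IMR-32 library. BID and BCL2L2 followed among BCL2 family genes, at 81.8 ± 23.0 and 80.6 ± 9.34. CASP9, the initiator caspase of the apoptosome, was at 74.5 ± 13.9, with BIRC5 (survivin) at 71.4 ± 22.5 and BIRC6 at 60.1 ± 12.9. GADD45A and PHLDA3, both p53 targets, were at 57.1 ± 16.6 and 55.6 ± 18.04, and the kinase gene ATM at 77.5 ± 22.3.

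WDR5 in the pathway stood out at the ribosomal protein genes RPL5, RPL11 and RPL23, whose products bind MDM2 and release p53 when ribosome assembly fails. In DMSO cells the mean WDR5 percentiles were 99.2 ± 0.719 at RPL5, 96.9 ± 2.28 at RPL11 and 97.9 ± 1.02 at RPL23 (SD, n = 3 each), at or above the level of BCL2L1. With the compound RPL5 was listed in 0 of 3 WDR5 libraries and 0 of 3 N-MYC libraries, while N-MYC stood at 90.8 ± 8.43 there in DMSO cells and at 95.4 ± 1.63 at RPL23. RPL23 was in all 3 compound WDR5 lists, at 65.4 ± 29.6, and RPL11 in 1, at 94.2. Of the other regulators, ATR (64.8 ± 11.4) and PPM1D (17.999 ± 20.7), a phosphatase that quenches p53, had WDR5 in 2 DMSO libraries each. So did the targets AEN (18.8 ± 16.0) and TP53INP1 (36.3 ± 38.01) and the family member BCL2L2 (42.9 ± 11.8), while the target FDXR (23.4 ± 18.1) and the caspase gene CASP2 (39.9 ± 28.6) had it in 3. In all, WDR5 was in at least 2 DMSO libraries at 5 of 13 regulators, 3 of 18 targets, 1 of 11 BCL2 family genes and 1 of 15 caspase and inhibitor genes, against 8.52% of all genes, so that the last 2 lists lay near that share. The 5 regulators were the ribosomal protein genes RPL5, RPL11 and RPL23, with ATR and PPM1D, so the count rests mostly on ribosomal protein genes. With the compound the counts were 1, 0, 0 and 0, against 1.34%.

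**Figure D4:**
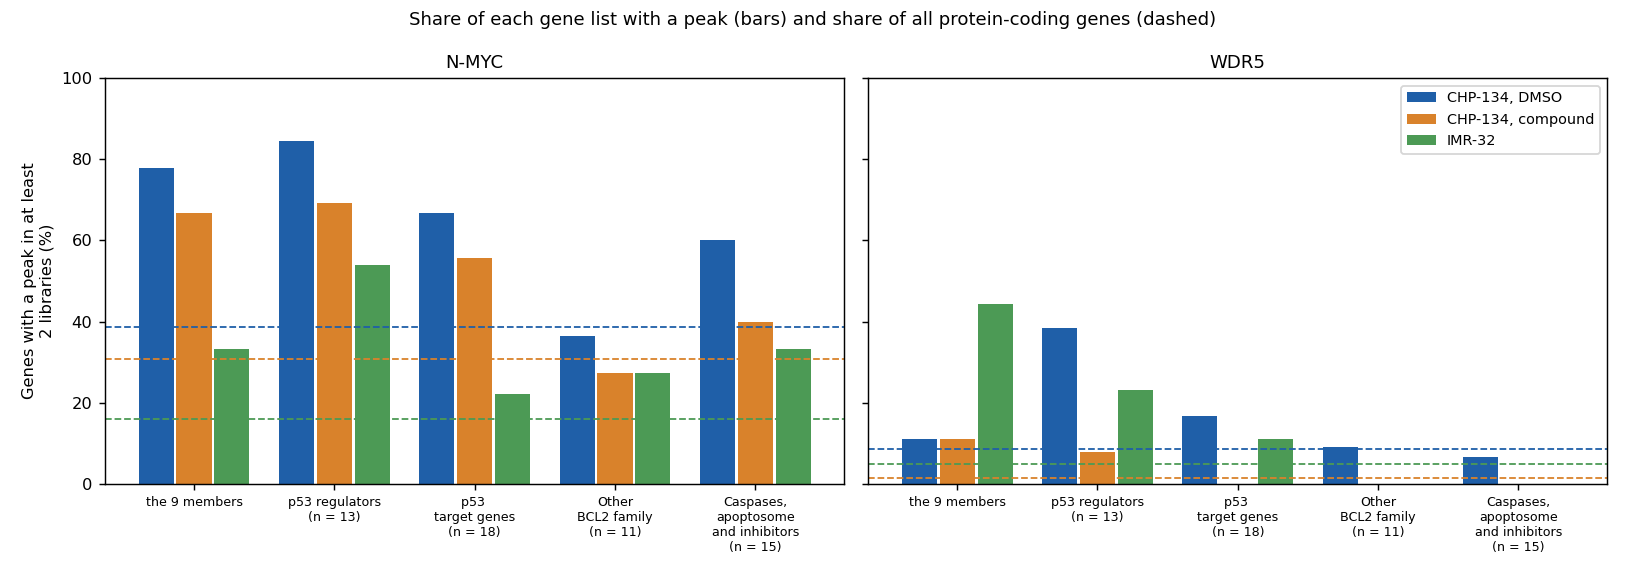
Share of genes in percent (vertical axis) with an N-MYC (left) or WDR5 (right) peak in at least 2 libraries, for the 9 genes and for each list of other pathway genes, with 1 bar per line and treatment and dashed lines for all protein-coding genes in the same colours. For N-MYC the bars of the 9 genes stand at 7, 6 and 3 of 9 genes. For WDR5 in DMSO cells the bar of the p53 regulators, 5 of 13, is the highest of the lists. Those 5 include the ribosomal protein genes RPL5, RPL11 and RPL23.

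The labelled cell type was looked for in the peaks. Of 7 markers of adrenergic neuroblastoma, 2 (HAND2 and GATA3) had an N-MYC peak in at least 2 DMSO libraries, against 38.6% of all genes, and the same number in IMR-32, against 15.9%. Peaks do not measure expression, so this neither meets nor fails the label.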

How the data were processed

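Peak lists of 16 ChIP-seq libraries were used, 8 of N-MYC and 8 of WDR5, grouped by the sample labels. Per the authors, Cutadapt trimmed the reads, Bowtie2 placed them on hg19, and MACS2 called peaks library by library at a q-value of 0.05. Versions and the control library are not given in the sources used here. Several ChIPs of one sample were pooled per library. The deposited fold is the ratio of signal to local background. For each peak the deposited files hold the p-value and the q-value as −log10, and the deposited score is a whole number made from the q-value. The lists hold no read counts, so depth is unknown and no counting interval can be given. The methods describe the experiments as repeated independently. Whether each repeat used a separate culture is not spelled out, so p-values measure the spread between these libraries.

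Summits were assigned to genes within 1 kb of any start site in GENCODE 44 mapped to GRCh37, whose chromosome lengths match the files. Each gene took its peak of highest fold, ranked as a percentile of its list. Consensus meant a peak in at least 2 libraries, and cobound meant consensus regions sharing at least 1 bp. Groups were compared with limma 3.58.1 (R 4.3.3) across all protein-coding genes with a peak in every library compared, leaving out lists under 100 peaks, with Benjamini-Hochberg adjustment. Libraries of the same number in N-MYC DMSO and compound cells deviated together (r = 0.595, 0.532 and 0.584 over 2157 genes), so there the numbers pair the libraries, as read from the data. CACGTG was searched within 100 bp of summits. The fit and the assignment of peaks were tested on simulated data. No columns were left unused for want of a sample.

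The 9 genes and all lists were chosen with earlier results of these data known. From each list the text names up to 3 genes with the highest mean N-MYC percentile among those in all 3 DMSO libraries, every gene with WDR5 in at least 2 DMSO libraries, and the 2 genes most like any member listed in all 8 N-MYC libraries. AATF was named after its values were seen. Some genes of the lists are not reported here. The test of summit position, the search for the p53 element and the fits that join the replicate block with another choice were added after the data were seen. Alternatives were the distance to a start site, the transcripts used, stricter q-values, the number of libraries required, the scale of the fold, the test, and leaving out each library.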

Additional observations from a re-analysis of the deposited data

How the results depend on the processing

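Of the counts of the 9 genes, those of N-MYC in DMSO cells and of WDR5 in IMR-32 moved by less than 1.5 times under every alternative tried. The WDR5 count in IMR-32 went from 4 to 5 with summits within 5 kb, and likewise with any base of the peak within 1 kb. With a peak in at least 1 library, the count was 5 for N-MYC in IMR-32, 7 for WDR5 in DMSO cells and 4 for WDR5 in compound cells. With all libraries required it was 1 for N-MYC and 0 for WDR5 in compound cells. Leaving out 1 library gave 1 to 6 genes for N-MYC and 0 to 1 for WDR5 in compound cells, and 3 to 5 for N-MYC in IMR-32, with 5 without replicate 2. Summits within 250 bp left 0 genes cobound in CHP-134, and a 50 bp window left 1 with CACGTG. For WDR5 with the compound, 11 of 148 genes passed, against 39 by log2 of fold over the list's median, 37 after re-ranking (22 of them lower, where all 11 were), 171 with unlisted genes set to percentile 0, 0 by the exact permutation test, which cannot go below 0.1, and 0 to 86 without 1 library, where a lone library is assumed to vary like the others. With the replicate block 0 passed, and BCL2L1 had a difference of -86.3 (adjusted p = 0.074). The WDR5 numbers give 2 pairs only and do not show pairing. BCL2L1 kept its call without DMSO replicate 1 or either compound library. For N-MYC in IMR-32 against CHP-134, 15 genes passed by log2 of fold and 222 with unlisted genes at 0. For WDR5 in that comparison 231, 29 and 44 passed by log2 of fold, re-ranking and unlisted genes at 0, and BCL2L1 turned to 1.11 and 1.88 under the first 2. For N-MYC with the compound, MDM2 turned to 8.72 after re-ranking and to 1.81 without compound replicate 2 with the replicate block, neither past the threshold, and the replicate block, alone or joined with another choice, changed no call. The summit test called 0 to 3 genes without 1 library (3, 1, 3 and 3 without DMSO replicate 2 or 3 or compound replicate 2 or 3), never MDM2, whose shift ranged from -184 to -169 bp. The missing depth limits every statement on a gene that was not listed. The cause of these changes was not tested.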
